A study of Mus musculus with 1376 samples.

Results

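The comparison set contractile cells of the mouse lung in which Cspg4 RNA was detected against contractile cells without a single Cspg4 count. A cell was taken as contractile when smooth muscle actin (Acta2) and smooth muscle myosin heavy chain (Myh11) both reached 1000 CPM (a gene's count relative to the total count of the cell) and the cell held at least 100000 counts. Of 1376 sequenced cells, 683 met this, and 92 more met the expression cut at a lower total. Cspg4 was at 0 counts in 69 of the 683, which form the absent group, and had a count under 20 CPM in 85, which entered neither group. In all others, 77.5% of the 683, Cspg4 reached 20 CPM, and these form the detected group.

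All cells came from lungs of 3 mice of the strain ACTA2GFP:CSPG4dsRED, whose name gives a green reporter for Acta2 and a red one for Cspg4, so both groups carry both reporters. The cells were placed by flow cytometry into 384-well plates, 1 cell a well, and copied by Smart-Seq2, which reads full-length cDNA without molecular identifiers. The sources used here do not state the gate, and a selection on either reporter before sequencing cannot be told apart from the makeup of the lung. Male mouse 1 gave 40 absent cells on 2 plates (045s and 046s), and male mouse 2 and the female gave 14 and 15, each on a single plate, where plate, animal and sex are confounded. The detected group was the larger one in each mouse, with 96 cells even in the female, which had the fewest. Ages are labelled as 8 to 30 weeks per sample and as 8 to 21 weeks in the series text, which speaks of male mice, and the extraction text names heart where the tissue label says lung.

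Cspg4 encodes NG2, a membrane-spanning chondroitin sulfate proteoglycan carried by pericytes and vascular smooth muscle cells, together called mural cells. Its outer part binds type VI collagen, galectin-3, integrin α3β1, PDGF-AA and FGF2, metalloproteinases cut it from the surface, and its short inner tail docks on PDZ-domain scaffolds. NG2 is widely used as a mural cell marker, and its level is known to differ between the arterial and the venous side of several vascular beds. In the lung, contractile cells also include airway smooth muscle and myofibroblasts of the alveolar wall.

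The detected cells spanned a wide range of Cspg4 levels. Their median was 269.2 CPM, 10% of them lay under 63.3 CPM, 10% above 914 CPM and the highest cell at 4224 CPM. Cells of 100 CPM or more made up 65.3% of all contractile cells, and 37 detected cells lay between 20 and 50 CPM. The nearest cells outside the threshold had 17.01, 18.1 and 18.8 CPM, and the nearest inside had 20.03, 20.07 and 20.2 CPM, from 5, 11 and 6 counts. These values chose the groups and carry no test.

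**Figure D1:**
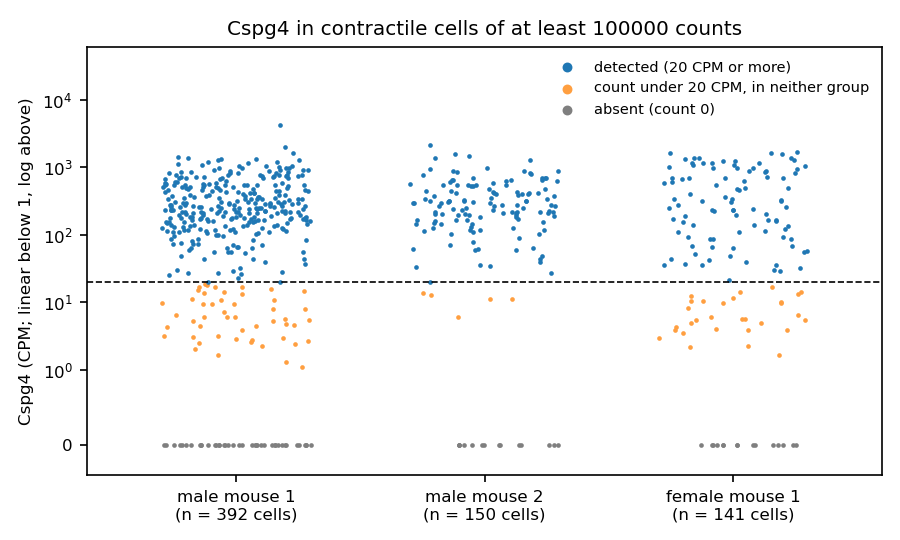
Each point is 1 contractile cell of at least 100000 counts, by mouse (x axis) and Cspg4 level in CPM (y axis, linear below 1 and logarithmic above), with the 20 CPM threshold dashed. In each mouse most cells lie above the line, around medians of 255.2, 294.7 and 312.9 CPM among detected cells, and a separate row of 40, 14 and 15 cells lies at 0.

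The detected share of contractile cells was 77.04% in male mouse 1 (exact 95% binomial interval 72.6% to 81.1%), 87.3% in male mouse 2 (80.9% to 92.2%) and 68.1% in female mouse 1 (59.7% to 75.7%). After every cell was thinned to 100000 counts the shares were 78.5%, 87.2% and 71.9%. Without thinning, the share with any Cspg4 count was 89.8%, 90.7% and 89.4%, nearly level over the 3 mice. After thinning to 100000 counts that share was 84.4%, 89.3% and 81.3%, so it was less level at equal depth. Contractile cells without a Cspg4 count then numbered 61, 16 and 26, against 40, 14 and 15 in the absent group as reported. As a background, 9 of 45 endothelial cells outside the contractile cut (20.0%, 9.58% to 34.6%, median depth 181863 counts, 44 of them from female mouse 1) and 11 of 43 macrophages (25.6%, 13.5% to 41.2%, median depth 274881 counts, 42 of them from male mouse 1) also reached 20 CPM. Any count was present in 66.7% of those endothelial cells and 53.5% of those macrophages. At 100 CPM the shares were 4.44% and 18.6%, against 65.3% of contractile cells. The macrophage share at 100 CPM differed between the plates of male mouse 1, with 6 of 15 (40%) on 045s and 1 of 27 (3.7%) on 046s. The lowest detected cells lay at levels that some endothelial cells and macrophages also reached. Intervals cover the sampling of cells only and leave out differences between animals, plates and the sort gate. They also leave out the copying step, as copies of 1 molecule cannot be recognised.

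Median counts per cell in detected and absent cells were 293784 and 229344 in male mouse 1, 166410 and 205287 in male mouse 2, and 257322 and 236324 in female mouse 1. Median genes per cell were 4358 and 3814, 4332 and 3927, and 4901 and 4932. Mitochondrial counts took a median of 1.68% and 1.65%, 2.23% and 1.69%, and 0.578% and 0.574%. The sums per mouse differed far more, with 95924873, 23943043 and 28689068 counts for detected cells and 10990883, 3110824 and 3758023 for absent cells. Over contractile cells pooled from all mice, the median Acta2 level went from 14268 CPM at 50000 to 100000 counts to 4654 CPM at 300000 counts and over. Over the same range Cspg4 went from 244.9 to 166.6 CPM and Myh11 from 3975 to 3384 CPM, the latter by way of 4340 and 4278 CPM at the depths between.

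Of the genes that chose the cells, Acta2 stood at 5100, 9076 and 5008 CPM in the detected sums of male mouse 1, male mouse 2 and the female, and at 5041, 6492 and 5492 CPM in the absent sums. Myh11 stood at 3938, 4851 and 4034 CPM against 2808, 2512 and 3596 CPM. Cspg4 stood at 330, 375.1 and 505.3 CPM against 0 by construction. Acta2 was close in the 2 groups of male mouse 1, higher in the detected sum of male mouse 2 and lower in that of the female, while Myh11 was higher in the detected sum of each mouse. These genes chose the cells, so their levels are a description. Cspg4 (ENSMUSG00000032911) lies on the plus strand of chromosome 9 (56865033 to 56899870, GRCm38), Acta2 on chromosome 19 (34241090 to 34255590) and Myh11 on chromosome 16 (14194535 to 14291372).

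Counts were summed per group and mouse, and the 6 sums were compared across 14522 genes with edgeR's quasi-likelihood test, with the mouse as a block. No gene passed an adjusted p of 0.05 in either direction, and the smallest adjusted p was 0.439. At an unadjusted p under 0.05 stood 1128 genes (7.77%), of which 886 were higher in detected cells (6.1%) and the rest lower (1.67%). DESeq2, a second count model, called 783 genes higher and 99 lower, and limma on the mean over cells called 1 higher and 0 lower. No direction below is therefore a call of the main test, and levels are given as CPM scaled by TMM (a correction for library composition) in the order male mouse 1, male mouse 2, female mouse 1.

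The detected sums lay all above the absent sums for 1716 genes (11.8%) and all below for 3.77%. This excess was in genes of low level. Among genes under 10 CPM on average 20.6% lay above, and among the 2222 genes of at least 100 CPM 6.08% lay above and 7.11% below. When only as many detected as absent cells were summed in each mouse, 669 of 11548 genes (5.79%) lay above and 4.70% below.

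The 12 genes of smallest p in each direction were chosen after their values were seen. Only genes with the same direction in all 3 mice could enter. They also needed a mean of at least 10 CPM in the higher group and a count in at least 10% of its cells in every mouse. Itih4, which encodes a secreted heavy chain of the inter-alpha-trypsin inhibitor family known mainly as a liver acute-phase protein, led the genes higher in detected cells. Its level was 2043, 3335 and 1582 CPM in the detected sums against 310, 429.2 and 522.9 CPM in the absent sums, or 2320 ± 909 against 420.8 ± 106.6 CPM (mean ± SD, n = 3 mice). The groups did not overlap, and the log2 fold change was 2.43 ± 0.28 (SE; edgeR adjusted p = 0.439). Itih4 was counted in 99.3%, 95.4% and 91.7% of detected cells and in 82.5%, 78.6% and 86.7% of absent cells, so the contrast was one of amount more than of presence. It lies on chromosome 14 (30886476 to 30902353).

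Clu, which encodes the secreted chaperone clusterin, had 1703, 2454 and 1460 CPM against 571.6, 412.4 and 580 CPM. Its groups did not overlap either (log2 fold change 1.82 ± 0.26; edgeR adjusted p = 0.453). Bcam, a receptor for laminin on the cell surface, had 410, 730 and 861 CPM against 118.9, 172.7 and 252.2 CPM (1.88 ± 0.22). An antisense gene, Gm26600, shares exonic bases with Bcam and cannot be told apart from it. P2rx1, the ATP-gated cation channel through which sympathetic nerves contract arteries, had 591.1, 698 and 524.5 CPM against 137.8, 34.3 and 110 CPM (2.86 ± 0.50). It was counted in 87.1%, 75.6% and 67.7% of detected cells and in 52.5%, 14.3% and 13.3% of absent cells, so here presence differed as well. Lrrfip1, which encodes a nucleic acid-binding protein, had 310.7, 374.8 and 229.4 CPM against 61.5, 100.6 and 76.1 CPM (1.94 ± 0.33). Fblim1, which encodes the filamin-binding adapter migfilin, differed least of the 12, with 951, 1683 and 1281 CPM against 470.9, 718 and 796 CPM (0.98 ± 0.18).

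The other 6 genes of the upper set were near 0 in absent cells. Grip2, a PDZ scaffold from the family whose member GRIP1 binds the tail of NG2, had 52.8, 129.2 and 86.6 CPM in detected sums, while the absent sums held 1, 1 and 0 counts. It was counted in 30.1%, 39.7% and 32.3% of detected cells, so most detected cells had no Grip2 count. Prdm16, a zinc-finger transcription regulator, had 90.7, 144.1 and 110 CPM against 2.17, 0.687 and 1.99 CPM. Its log2 fold change of 6.16 depended on which cells counted as absent. It was 2.34 with groups taken anew after thinning to 100000 counts, and 3.16 with cells under 20 CPM of Cspg4 counted as absent. In female mouse 1 a count of Prdm16 was present in 39.6% of detected and 40% of absent cells, so there the difference lay in the counts per cell. Alpl, the tissue-nonspecific alkaline phosphatase, had 77.2, 103.6 and 93.7 CPM against 0.26, 2.06 and 3.41 CPM. Synm, which encodes the intermediate filament protein synemin, had 185.4, 135.9 and 99.6 CPM against 11.3, 0.343 and 3.41 CPM and shares exonic bases with the antisense gene Ttc23. Odf3l1 and Gm830 had 51.9 to 135.3 CPM in the detected sums and at most 1.39 CPM in the absent sums, and Gm830 shares exonic bases with Gm12707.

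Timp3, an inhibitor of metalloproteinases that stays bound to the matrix, led the genes higher in absent cells. It had 1366, 1754 and 1848 CPM in detected sums against 4346, 6887 and 3731 CPM in absent sums, or 1656 ± 255.8 against 4988 ± 1673 CPM (n = 3 mice). The groups did not overlap (log2 fold change −1.55 ± 0.19; edgeR adjusted p = 0.439), and every cell of both groups had a Timp3 count. Timp3 (chromosome 10, 86300372 to 86349506) shares exonic bases with the antisense gene Syn3, which was also in this set at 476.4, 611.2 and 405.01 CPM against 1588, 2436 and 775 CPM. Their reads cannot be told apart without strand.

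Apoe, a lipid carrier, had 1007, 869 and 1105 CPM against 1883, 2066 and 2398 CPM (log2 fold change −1.09 ± 0.14), without overlap. Serping1, the inhibitor of complement C1, had 435.3, 524.3 and 745 CPM against 1181, 1623 and 1349 CPM (−1.31 ± 0.20). Gpx3, a secreted glutathione peroxidase, had 811, 571.6 and 854 CPM against 1693, 2864 and 1934 CPM (−1.52 ± 0.27). All 3 absent sums lay above all 3 detected sums for each of these genes.

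Mfap5, a microfibril protein, had 45.4, 119.3 and 102.2 CPM against 237.9, 596.8 and 240 CPM. Col14a1, a collagen that sits on fibril surfaces, had 58.2, 58.1 and 242.1 CPM against 312.7, 461.9 and 562.4 CPM. Pcolce2, an enhancer of procollagen cleavage, had 118.999, 101.96 and 175.4 CPM against 351.5, 340 and 487.4 CPM. Tgfbi, a matrix protein induced by TGF-beta, had 76.4, 73.02 and 377.98 CPM against 420.5, 372.6 and 918 CPM, where the detected sum of female mouse 1 exceeded the absent sum of male mouse 2. Gsn, which encodes the actin-severing protein gelsolin, overlapped too, through the detected sum of female mouse 1, with 2103, 2715 and 3880 CPM against 3518, 4758 and 6114 CPM.

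The set closed with 2 surface proteins. Nrp1, a co-receptor for semaphorins and VEGF, had 300, 211.9 and 306.7 CPM against 759, 528.5 and 1335 CPM (−1.59 ± 0.24). Icam1, the adhesion molecule for leukocytes, had 27.8, 39.6 and 48.004 CPM against 194.01, 218.1 and 197.4 CPM (−2.43 ± 0.41). In male mouse 2 only 14.3% of absent cells had an Icam1 count, so that sum rests on few cells. With male mouse 1 given by plate 045s alone the log2 fold change of Icam1 was −1.04, and by plate 046s alone −2.85.

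**Figure D2:**
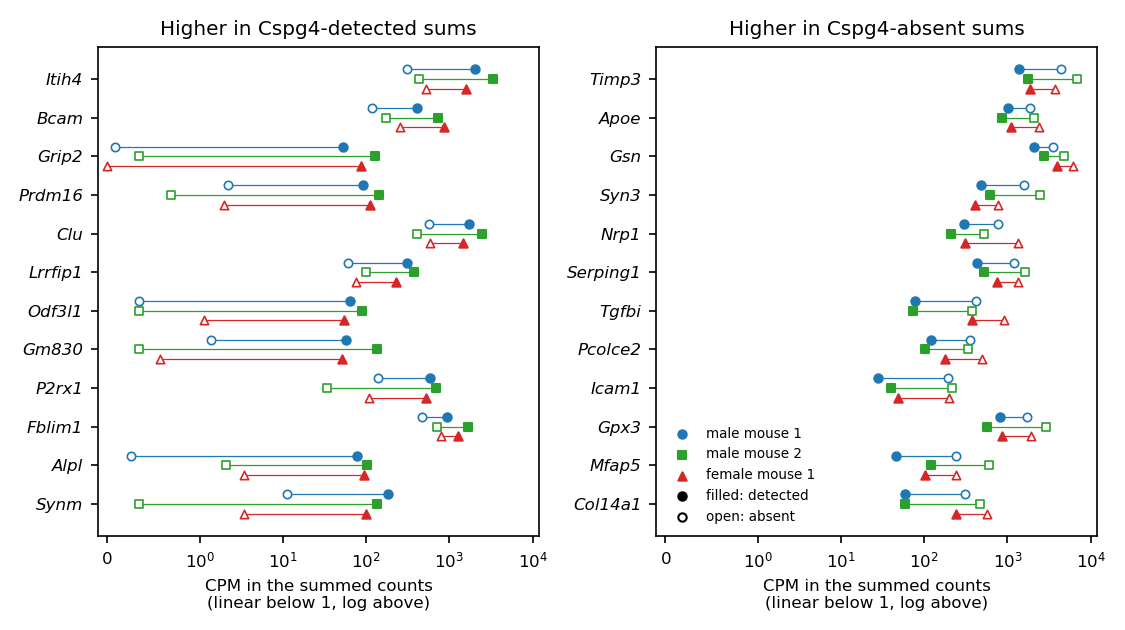
Level of the 24 chosen genes in the summed counts (x axis, CPM, linear below 1 and logarithmic above), with filled symbols for detected and open symbols for absent sums of the same mouse. Each gene has the same order of filled and open symbols in all 3 mice, as the choice required. Itih4 goes from 310 to 2043 CPM in male mouse 1 and Timp3 from 4346 to 1366 CPM.

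The 85 contractile cells with a Cspg4 count under 20 CPM were not used in choosing these genes. Their levels lay nearer to the absent than to the detected sum, on a log scale, for 23 of the 24 genes in male mouse 1 (50 cells), 21 in male mouse 2 (5 cells) and 20 in female mouse 1 (30 cells). The exceptions were Prdm16 in male mouse 1, P2rx1, Nrp1 and Icam1 in male mouse 2, and Prdm16, Synm, Apoe and Nrp1 in female mouse 1. For Itih4 these cells had 189.4, 222.8 and 233.1 CPM, below the absent cells of the same mouse (325.8, 401.8 and 490 CPM in counts scaled to the total alone). For Timp3 they had 3965, 4305 and 3587 CPM, against 4565, 6447 and 3495 CPM in absent cells. By this measure most of these genes lay closer to the cells without a Cspg4 count. The same count was not taken over all genes, so it does not set these genes apart from others.

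Within the detected group the levels of these genes differed with the Cspg4 level of the cell. They were chosen on sums of these same cells, so the values are a description. Itih4 had 723, 2690 and 2355 CPM at 20 to 100, 100 to 300 and 300 CPM of Cspg4 and over in male mouse 1. For male mouse 2 the values were 1039, 3647 and 3568 CPM and for female mouse 1 416.5, 1413 and 2181 CPM, so that it was higher in the top range than in the middle one in the female alone. Clu had 1295, 1866 and 2124 CPM, then 1555, 2579 and 2467 CPM, and 896, 1371 and 1741 CPM in the same order of mice. In the opposite direction Timp3 had 2922, 1239 and 1277 CPM, 2682, 1739 and 1349 CPM, and 2472, 1941 and 1475 CPM. The cells of 20 to 100 CPM of Cspg4 lay between the 0 cells and the highest cells for Clu and Timp3 in each mouse. For P2rx1 in female mouse 1 they had 2.09 CPM, below the absent cells (102.98 CPM), against 774 CPM at 300 CPM of Cspg4 and over, while in male mouse 2 P2rx1 was 754 CPM in the middle range and 678 CPM in the top one. For Tgfbi in female mouse 1 the cells of 20 to 100 CPM had 1275 CPM, above the absent cells (860 CPM), against 132.5 CPM at the highest Cspg4.

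**Figure D3:**
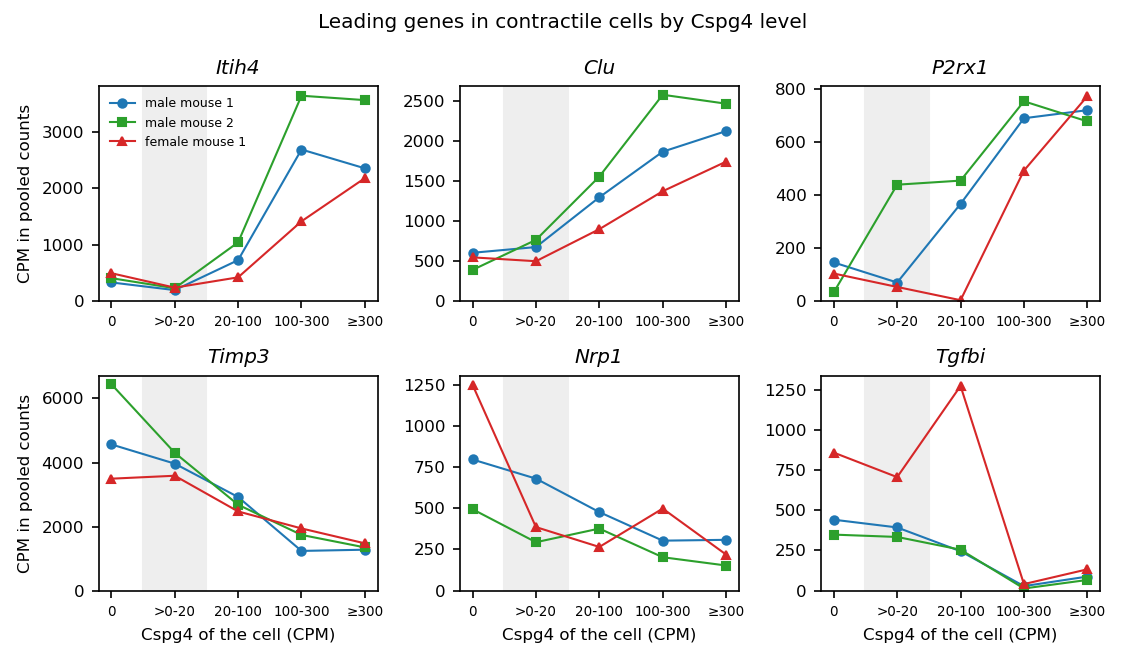
Pooled level (y axis, CPM) of 6 of the 24 genes in contractile cells grouped by their own Cspg4 level (x axis, CPM), with 1 line per mouse and the cells that entered neither group shaded. The shaded cells lie near the cells at 0 for Itih4 (189.4, 222.8 and 233.1 CPM), and Timp3 in male mouse 1 goes from 4565 CPM at 0 to 1277 CPM at 300 CPM of Cspg4 and over.

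Contractile cells under 100000 counts formed another set outside the comparison, with 79 detected, 6 absent and 7 in between. Pooled over mice, 19 of the 24 genes differed there in the same direction, and the exceptions were Gm830, Gsn, Serping1, Pcolce2 and Icam1. P2rx1 had 636.9 CPM in the detected cells against 2.3 CPM in the absent ones, and Itih4 had 3392 against 2076 CPM. With 6 absent cells and no such count over all genes, these values are a description only.

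With all cells summed, binding partners and processing enzymes of NG2 had shares near those of all genes. Of 15 tested members of that list, 2 lay above and 1 below (13.3% and 6.67%), against 11.8% and 3.77% of all genes. With equal cell numbers 3 of 15 lay above (20%, Itga3, Itgb1 and Lgals3) and 1 below (6.67%, Mpdz). The shares of all genes were then 5.79% and 4.70%. Mmp14, a membrane metalloproteinase that cleaves NG2, had 152.8, 99.3 and 175.1 CPM in detected against 281.1, 185.4 and 351.9 CPM in absent sums, without overlap (log2 fold change −0.93 ± 0.28; unadjusted edgeR p = 0.0144). Type VI collagen, a main ligand, had its 3 chains Col6a1, Col6a2 and Col6a3 slightly higher in the absent sum of each mouse, with log2 fold changes of −0.47 ± 0.18, −0.24 ± 0.16 and −0.70 ± 0.31. Col6a1 stood at 395.8, 533.3 and 1446 CPM against 574.2, 890 and 1586 CPM, so the groups overlapped widely.

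Of the integrin partner, Itgb1 had 1144, 1612 and 1014 CPM against 1207, 1130 and 1001 CPM. Itga3, its alpha chain, had 63.5, 85.6 and 190 CPM against 58.4, 0 and 17.04 CPM. Lgals3, which encodes galectin-3, had 177.6, 150 and 153.7 CPM against 127.1, 143.9 and 142.3 CPM, without overlap but with a log2 fold change of only 0.22 ± 0.34. Of the scaffolds for the tail, Mpdz had 75.2, 98.4 and 78.97 CPM against 91.2, 128.4 and 93.7 CPM and Sdcbp 409.2, 579.1 and 317.3 CPM against 425.4, 650 and 426.3 CPM, each slightly lower in the detected sum of every mouse. Of the growth factors that NG2 binds, Pdgfa had 78.1, 71.3 and 96.6 CPM against 130.6, 72.8 and 20.7 CPM, with no common direction.

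The PDGF receptors, whose signalling NG2 is known to aid, did not separate the groups. Pdgfrb, the receptor that marks mural cells, had 320.6, 442.8 and 1180 CPM against 326.2, 694 and 1159 CPM (log2 fold change −0.21 ± 0.21), and the mice differed more than the groups did. Pdgfra had 4.71, 6.45 and 12.5 CPM against 44.6, 8.24 and 5.96 CPM.

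Enzymes that build chondroitin and dermatan sulfate chains, the sugar that NG2 carries, had 3 of 24 above and 2 below (12.5% and 8.33%). Their median log2 fold change was −0.08, against 0.41 for all genes tested and −0.05 for all genes of at least 100 CPM. With equal cell numbers the median was −0.54 for the enzymes and 0.03 for all genes. The 2 enzymes of smallest p were low. Chst7 held 1 count in all absent sums together and at most 3.48 CPM in detected sums, and Papss2 had 0.821, 6.11 and 6.79 CPM against 4.68, 81.4 and 17.9 CPM. Of 27 other proteoglycans, 3 lay above (11.1%, Vcan, Omd and Sdc3) and 2 below (7.41%, Podn and Tgfbr3), against 11.8% and 3.77% of all genes. With equal cell numbers 1 of 24 lay above (4.17%, Sdc3) and 4 below (16.7%, Podn, Agrn, Tgfbr3 and Smoc2), against 5.79% and 4.70% of all genes. Sdc3, a syndecan, had 87.7, 60.4 and 130 CPM against 7.10, 0.687 and 20.7 CPM. Podn, a small leucine-rich proteoglycan, had 67.2, 76.8 and 200.8 CPM against 208.2, 454.7 and 361.9 CPM. Tgfbr3, the proteoglycan co-receptor for TGF-beta, had 81.2, 150 and 123.9 CPM against 169.2, 318.7 and 301.9 CPM. Biglycan (Bgn), the most abundant member in both groups by CPM per kilobase of exon, had 2495, 4051 and 3235 CPM against 2378, 3174 and 3689 CPM, which overlap.

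Of 28 contractile proteins tested, 8 lay above (28.6%) and 0 below, against 11.8% and 3.77% of all genes. Among the 26 of at least 100 CPM 6 lay above and 0 below, where 6.08% of all genes lay above and 7.11% below. With equal cell numbers 9 of 28 lay above (32.1%), against 5.79% of all genes. Des, which encodes the muscle intermediate filament protein desmin, had 2485, 2714 and 2944 CPM against 1542, 1483 and 2459 CPM (log2 fold change 0.61 ± 0.15; edgeR unadjusted p = 0.00584). Synpo2, an actin-bundling protein, had 745, 990 and 692 CPM against 393.1, 397.7 and 549.3 CPM. Csrp1, a LIM protein of the actin skeleton, had 1590, 1528 and 1141 CPM against 1044, 1082 and 860 CPM. Mylk, the kinase that activates myosin, differed least of the 8 with 1889, 2281 and 2060 CPM against 1653, 1771 and 1718 CPM. Hspb6, Ldb3, Sorbs2 and Synm were the remaining 4. For 6 of the 8 the log2 fold change was under 1, while Synm and Sorbs2 were near 0 in the absent sums, Sorbs2 with 1 count in all.

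Ion channels and calcium-handling genes had 11 of 32 above (34.4%) and 2 below (6.25%), against 11.8% and 3.77% of all genes. Among the 12 of at least 100 CPM 3 lay above and 2 below, where 6.08% of all genes lay above and 7.11% below. Most of the 11 were thus of lower level, where more of all genes lay above. With equal cell numbers 8 of 27 lay above (29.6%, against 5.79% of all genes) and the same 2, Kcnj8 and Abcc9, below. Besides P2rx1, the higher ones included Kcnmb1, the smooth muscle subunit of the large-conductance calcium-activated potassium channel, with 270, 413.004 and 271.7 CPM against 134.8, 141.8 and 236.03 CPM. Kcna5, a voltage-gated potassium channel, had 144.5, 173.3 and 157.5 CPM against 34.3, 0.343 and 113.05 CPM. Its partner Kcnab1 had 76.6, 141.95 and 26.3 CPM against 10.7, 0.343 and 0.284 CPM. Pln, the inhibitor of the calcium pump of the sarcoplasmic reticulum, had 17.3, 7.35 and 7.95 CPM, and the absent sums held 0, 0 and 1 counts.

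Kcnj8 and Abcc9 encode the pore and the regulatory subunit of the ATP-sensitive potassium channel of mural cells. Kcnj8 had 120.8, 138.9 and 291.6 CPM in detected against 342.2, 722 and 357.9 CPM in absent sums (log2 fold change −1.40 ± 0.42; edgeR unadjusted p = 0.0136). Abcc9 had 143.6, 211.2 and 190.96 CPM against 281.2, 507.5 and 327.2 CPM (−1.004 ± 0.26; unadjusted p = 0.00645). Both subunits were thus lower in the detected sum of each mouse, opposite to the other potassium channel genes named.

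Cyclic nucleotide signalling, which relaxes smooth muscle, had 4 of 23 above (17.4%) and 0 below, against 11.8% and 3.77% of all genes. Adcy5, an adenylyl cyclase, had 276.6, 255.9 and 298.2 CPM against 66.95, 109.2 and 167.9 CPM (log2 fold change 1.37 ± 0.36). Mrvi1, which encodes the substrate of the cGMP kinase that restrains calcium release, had 318.5, 451.4 and 411.6 CPM against 123.7, 185.4 and 303.9 CPM. The other 2, Gucy1a2 and Pde3b, stayed under 13 CPM in each sum. With equal cell numbers 2 of 20, Mrvi1 and Adcy5, lay above (10%, against 5.79% of all genes). Among 36 vasoactive receptors and their regulators 3 lay above and 3 below (8.33% each). P2ry6, a receptor for UDP, had 75.2, 56.2 and 108.8 CPM against 0.866, 3.43 and 1.42 CPM, and P2ry14, a receptor for UDP-glucose, had 192.9, 173.3 and 270.7 CPM against 503.6, 553.6 and 485.1 CPM.

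The Notch list had 2 of 15 above (13.3%) and 1 below (6.67%), near the shares of all genes (11.8% and 3.77%). Notch3, the Notch receptor of vascular smooth muscle, had 390, 435.5 and 1180 CPM against 260.9, 62.8 and 1389 CPM, so its direction in female mouse 1 was opposite to that in the male mice. Cells with at least 20 CPM of Notch3 made up 70.5%, 62.6% and 82.3% of detected and 42.5%, 21.4% and 73.3% of absent cells. Of 34 TGF-beta and BMP genes, 6 lay above (17.6%) and 2 below (5.88%), the latter Bmp5 and the BMP antagonist Chrdl1, with 83.1, 57.1 and 55.6 CPM against 274.5, 323.8 and 172.1 CPM. Of 36 hedgehog and Wnt genes, 6 lay above (16.7%) and 2 below (5.56%). Among these, Sost, a secreted Wnt inhibitor, had 26.7, 55.8 and 33.8 CPM, and the absent sums held 2, 0 and 0 counts. Dkk3 had 240, 441.3 and 498.2 CPM against 571.999, 630.5 and 706 CPM. With equal cell numbers 4 of 31 TGF-beta and BMP genes lay above (12.9%) and 3 below (9.68%). Of 30 hedgehog and Wnt genes 3 then lay above (10%) and 2 below (6.67%), against 5.79% and 4.70% of all genes. The median log2 fold changes of these 2 lists went from 0.06 to −0.30 and from 0.41 to −0.58, and that of all genes from 0.41 to 0.03. Of 44 growth factor genes 5 lay above (11.4%) and 2 below (4.55%), against 11.8% and 3.77% of all genes. Igf1, besides Nrp1, lay below with 35.7, 22.4 and 80.03 CPM against 207.4, 309.1 and 224.1 CPM.

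Of 31 adhesion genes tested, 6 lay above (19.4%), namely Itga3, Itga5, Itga7, Cdh13, Gjc1 and Ncam1, and 2 below (6.45%), Icam1 and Vcam1, against 11.8% and 3.77% of all genes. The other 23 overlapped, and with equal cell numbers 4 of 29 lay above (13.8%, against 5.79%). Vcam1 had 64.5, 31.6 and 59.2 CPM against 436.6, 310.8 and 128.95 CPM (log2 fold change −2.41 ± 0.51). Cdh13, a cadherin without an inner tail, had 990, 1054 and 841 CPM against 812, 495.5 and 333.7 CPM. Basement membrane and fibrillar matrix lists had 1 of 21 and 1 of 40 above (4.76% and 2.5%, against 11.8% of all genes). Below lay 1 and 2 (4.76% and 5%, against 3.77% of all genes). Col18a1, a basement membrane collagen, had 635.5, 920 and 1385 CPM against 216.9, 37.4 and 630 CPM.

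Chemokine, cytokine and complement genes had 4 of 26 below (15.4%, against 3.77% of all genes) and 3 above (11.5%). With equal cell numbers 6 of 19 lay below (31.6%) and 0 above, against 4.70% and 5.79% of all genes. Ccl19, a chemokine for lymphocytes, had 29.1, 11.3 and 49.2 CPM against 130.7, 170 and 149.1 CPM. Ccl11, the eotaxin gene, had under 1 CPM in each detected sum against 67.8, 29.2 and 26.98 CPM, from 12.5%, 7.14% and 13.3% of absent cells. Il34, Tnfrsf11b and Tnfsf10 lay above at 31 CPM or less.

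Immediate early and heat shock genes, which answer stress and tissue dissociation, had 7 of 33 below (21.2%, against 3.77% of all genes) and 0 above. All 7 were among its 26 members of at least 100 CPM, where 7.11% of all genes lay below. Zfp36, an mRNA-destabilising protein, had 702, 1028 and 739 CPM against 1065, 2766 and 1222 CPM (log2 fold change −0.92 ± 0.20; edgeR unadjusted p = 0.00285). Junb, a subunit of AP-1, had 1182, 885 and 1529 CPM against 1747, 1799 and 2190 CPM. Gadd45g had 427.8, 368.97 and 551.9 CPM against 791, 1033 and 808 CPM, and Nr4a1 differed least with 2064, 2014 and 2072 CPM against 2123, 2503 and 2322 CPM. With equal cell numbers 2 of 32 lay below (6.25%, against 4.70% of all genes) and 1 above, so the count of this list moved with the number of detected cells summed.

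**Figure D4:**
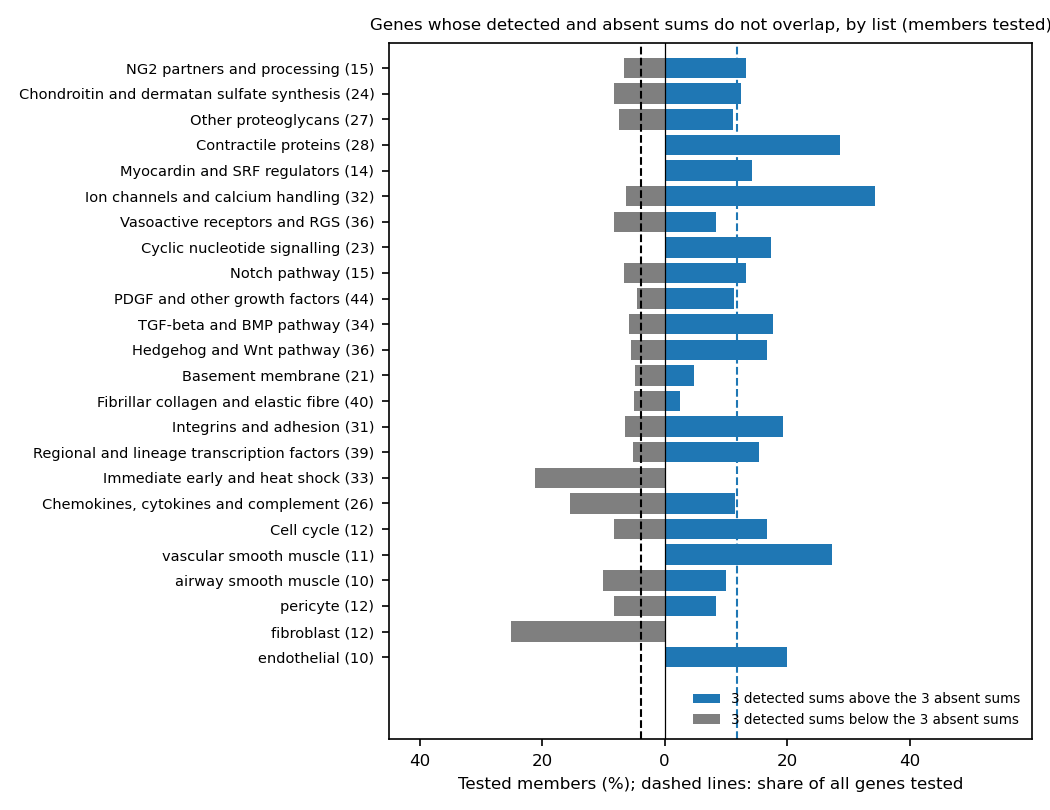
Share of the tested members of each list (x axis, percent, number of members in brackets) whose 3 detected sums lay all above (blue, right) or all below (grey, left) the 3 absent sums, for lists with at least 10 tested members. Dashed lines give the shares over all genes, 11.8% and 3.77%; ion channels (34.4%) and contractile proteins (28.6%) reach farthest right, and fibroblast markers (25%) and immediate early genes (21.2%) farthest left.

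Summed markers of several cell types differed between the groups, while few single markers lay above or below. The 11 vascular smooth muscle markers summed to 3331, 3692 and 5410 CPM in detected and 1851, 1629 and 4402 CPM in absent cells. Of the 11, 3 lay above (27.3%, P2rx1, Itga7 and Pln) and 0 below, against 11.8% and 3.77% of all genes. Pln was at 0 counts in the absent cells of both male mice. The airway smooth muscle list summed to 5529, 7502 and 5284 CPM against 4282, 5673 and 3882 CPM, with 1 of 10 above (10%, Lgr6) and 1 below (10%, Ptch1). Its median log2 fold change was −0.55, opposite in sign to the sum, and −1.07 with equal cell numbers. Among its members Actc1 had 2781, 4719 and 1953 CPM against 1608, 2097 and 1462 CPM, while Hhip, the hedgehog-binding protein, had 191.97, 130.99 and 1004 CPM against 867, 1551 and 905 CPM. Hhip is also a member of the alveolar myofibroblast list below, so these lists are not independent. The pericyte list summed to 2462, 2886 and 4170 CPM against 2413, 2701 and 4510 CPM. Cells with at least 3 pericyte markers at 20 CPM made up 77.2%, 81.7% and 87.5% of detected and 45%, 50% and 86.7% of absent cells, so this share differed in the male mice where the sums were close. Cells with at least 3 of the vascular smooth muscle markers at 20 CPM made up 88.1%, 93.9% and 86.5% of detected and 50%, 42.9% and 100% of absent cells.

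Markers of matrix-producing cells were higher in the absent sums. The alveolar myofibroblast list summed to 1803, 1719 and 2593 CPM in detected and 3474, 4013 and 2684 CPM in absent cells, and its 7 tested members had a median log2 fold change of −1.76. Cells with at least 3 of these markers at 20 CPM made up 12.3%, 14.5% and 42.7% of detected and 32.5%, 50% and 73.3% of absent cells. The fibroblast list summed to 1237, 1428 and 3753 CPM against 2419, 2835 and 4942 CPM. Of its 12 members, 3 lay below (25%, Tcf21, Col14a1 and Npnt) and 0 above, against 3.77% and 11.8% of all genes. Its defining marker Pdgfra, which is also in the alveolar myofibroblast list, stayed under 45 CPM in each sum. The part of this cell type mix in the gene differences was not tested.

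Endothelial markers summed to 309.3, 332.5 and 334.1 CPM against 190, 58.5 and 224.9 CPM. Of the 10, 2 lay above (20%, Esam and Pecam1) and 0 below, against 11.8% and 3.77% of all genes. At least 3 endothelial markers at 20 CPM were present in 2.65%, 20.6% and 1.04% of detected cells and in 0%, 0% and 13.3% of absent cells, the last being 2 of 15 cells. Immune markers summed to 144.2, 15.7 and 32.1 CPM against 83.8, 9.97 and 25.3 CPM, with Cd3e at 0 in each group. At least 3 immune markers were present in 4.97%, 0% and 1.04% of detected and 12.5%, 0% and 0% of absent cells. Epithelial markers summed to at most 225.4 CPM. The sum of the cardiomyocyte list was carried by Actc1, which smooth muscle also expresses, with Nppa at 0 in the detected cells of each mouse. Of its 4 tested members, 2 lay above (Myl4 and Ryr2, 50% against 11.8% of all genes) and 0 below, and the same 2 with equal cell numbers. At least 3 cardiomyocyte markers at 20 CPM were present in 3.31%, 3.05% and 1.04% of detected and 0% of absent cells.

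**Figure D5:**
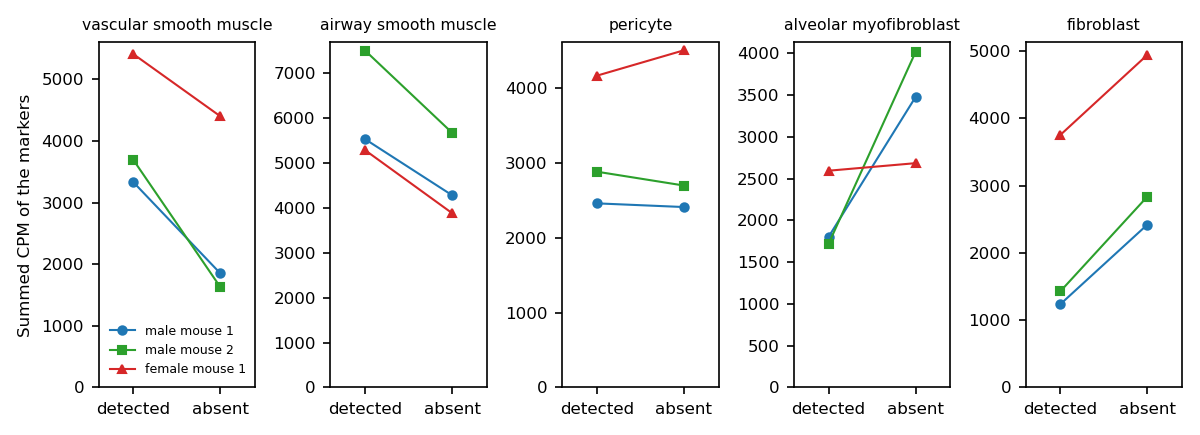
Summed level (y axis, CPM) of 5 marker lists in the detected and absent cells of each mouse, with 1 line per mouse. The fibroblast lines go up from detected to absent in each mouse (1237 to 2419 CPM in male mouse 1), the vascular lines go down, and the pericyte lines go from 2462 to 2413, 2886 to 2701 and 4170 to 4510 CPM.

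The contrast was repeated on each side of a cut at 20 CPM of Notch3, which does not match the Notch3 levels of the groups within a side. Among cells with at least 20 CPM of Notch3, male mouse 2 had 3 absent cells and was left out, and the other 2 mice gave a log2 fold change of 2.73 for Itih4, −1.34 for Timp3, 1.78 for P2rx1 and 1.52 for Clu. Among cells under 20 CPM of Notch3, female mouse 1 had 4 absent cells and was left out, and the male mice gave 2.33, −1.65, 2.99 and 1.83. No gene of the 24 was called in either fit. The genes were chosen on these same cells, so these values are a description.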

How the data were processed

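The deposited file gives raw counts of reads, as whole numbers, for each gene in each cell (per the file headers). Tools named by the submitters' processing notes are Subread, featureCounts, Bowtie2, Bowtie and bcl2fastq, with GRCm38 and mm10. Their versions, and how strand, multi-mapping and duplicates were treated, are not given in the sources used here. Symbols (46005 of 46517 genes) and coordinates came from GENCODE annotation of GRCm38. No column was left unused, no cell repeated another, and no doublet caller was run. Cells held 50835 to 1074103 counts (median 230688).

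The detected group held 529 cells (302 of male mouse 1, 131 of male mouse 2, 96 of female mouse 1) and the absent group 69 (40, 14 and 15), 598 of 1376 in all. Counts were summed per group and mouse and tested with edgeR 4.0.16 (glmQLFit, glmQLFTest, two-sided; TMM; filterByExpr by group; mouse as block), with Benjamini-Hochberg adjustment over all genes but Cspg4, Acta2 and Myh11, and calls at 0.05. Both groups come from the same 3 animals, so the mouse pairs the sums. Standard errors are the log2 fold change over the square root of F. An exact sign-flip test over 3 mice cannot go below 0.25. Alternatives used DESeq2 1.42.0, limma 3.58.1 and other thresholds, depths and cells. The procedure was tested on simulated data, where it called only a minority of the genes given a known change.

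"Above" and "below" mean that the 3 detected and 3 absent sums do not overlap. The cells, lists and tests were chosen with earlier results of these data known. The rule for named genes took rule genes, 12 called genes per direction (none qualified), and up to 2 members of smallest p per list; NG2 partners, proteoglycans and PDGF receptors could be named freely. Every other gene named was chosen after its values were seen. Levels by Cspg4 range and marker sums are scaled to total counts alone. Endothelial cells had 100 CPM of Pecam1 and Cdh5, and macrophages 200 CPM of C1qa and C1qb.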

Additional observations from a re-analysis of the deposited data

How the results depend on the processing

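Called genes in the comparison of detected with absent cells numbered 0 higher and 0 lower under every alternative except 4: 11 higher and 8 lower without a filter on low counts, 783 and 99 with DESeq2 (27579 genes in the fit), 1 and 0 with limma on equally weighted cells (Itih4, adjusted p = 0.0429), and 1 and 0 without cells that had 3 or more endothelial, immune or epithelial markers. DESeq2 gives an adjusted p only to genes that pass its own filter, so its calls may rest on fewer genes. Without the replicate block, in which each mouse is paired with itself, 0 and 0 genes were called and 1071 had an unadjusted p under 0.05, against 1128 with it. The 24 leading genes, whose choice on these cells favours it, kept their direction in each of 22 alternatives, and 26 of their values there passed the threshold. DESeq2's scaling moved log2 fold changes by a median of −0.10. The 1716 genes with all detected sums above and the 3.77% with all below moved to 3420 to 4214 and 1539 to 2185 when 1 mouse was left out, by construction, as fewer sums must then be ordered. For the same reason, with 2 mice left, they were 3635 and 1730 at totals of at least 200000 (without male mouse 2), 3771 and 1770 at 20 CPM of Notch3 or more (without male mouse 2), 3609 and 1930 without cells of 4 or more pericyte markers (without female mouse 1), and, added after seeing the data, 3427 and 1773 under 20 CPM of Notch3 (without female mouse 1). The genes above were 3140 without a filter and 2676 with DESeq2, where more genes entered the fit, and, in alternatives added after seeing the data, 796 among genes of at least 10 CPM and 669 with equal cell numbers. The detected share of contractile cells moved to 89.8% in male mouse 1 and 89.4% in female mouse 1 with any Cspg4 count, and to 59.6% in female mouse 1 at 50 CPM. Acta2 and Myh11 of at least 2000 CPM left 1 mouse with 10 absent cells or more and could not be fitted.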
